A study of Mus musculus with 8 samples.

Results

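Gm21451, Entpd4, Loxl2, Nnt and Wdfy1 are mouse genes whose sequence, copy number or expression is known to differ between inbred mouse strains, or which lie beside such a gene. These 5 genes were taken by symbol from the 32849 gene symbols of the count table, of which 22721 had a count in at least 1 library. They were selected on the counts of the MGL KO against the WT libraries, where Gm21451 differed, and on what is known of mouse strains, so the values of the 5 genes are described below without a test. RNA was sequenced from esophagus tissue of 4 mice labelled MGL KO and 4 labelled MGL WT, with no treatment named for these samples. MGL KO mice carry a global deletion of monoacylglycerol lipase, the enzyme that breaks down the endocannabinoid 2-arachidonoylglycerol. According to the study's methods, they were bred in-house beside WT littermates and used as young adults of either sex. The strain background of the MGL KO line, the sex and age behind each library and the kinship of the mice are not given in the sources used here. The p-values below measure the spread between these samples. In bulk tissue, fewer cells of a type and less RNA per cell cannot be told apart.

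Gm21451 is annotated as an unprocessed pseudogene, a copied gene that kept its intron and exon structure. It lies beside its source, Loxl2, which encodes a secreted copper-dependent lysyl oxidase that oxidizes lysines of collagen and elastin so that the fibers can be crosslinked. Entpd4 encodes a nucleoside diphosphatase of the Golgi and lysosomes. Nnt encodes the nicotinamide nucleotide transhydrogenase of the inner mitochondrial membrane, which uses the proton gradient to make NADPH for the reduction of glutathione and thioredoxin, and C57BL/6J mice carry a deletion of several of its exons whereas most other strains do not. Wdfy1 encodes an endosomal protein with WD repeats and a FYVE domain that links Toll-like receptors to the adaptor TRIF.

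The total count per library ran from 13479069 to 17090152, so that 3 counts, the most that 0 counts leave room for, corresponded to 0.167 to 0.271 in a single library on the scale of normalized CPM, the counts per 1000000 counts of the library after scaling by the TMM factor. Intervals and limits based on counts cover counting error only. Mgll, the targeted gene on chromosome 6, had 177 to 234 counts in the MGL KO libraries and 1167 to 1493 in the WT libraries (13.7 ± 1.54 against 81.2 ± 9.97 normalized CPM, SD, n = 4 each, edgeR quasi-likelihood adjusted p = 0.000133). Markers of squamous epithelium and of skeletal muscle, the main tissues of the mouse esophagus, summed to 3940.7 to 16089.8 and 36797.4 to 89222.7 normalized CPM per library, and none of these 16 genes was at 0 throughout. MGL KO replicate 4 stood apart, with 7294.5 summed CPM over 5 airway secretory markers and 635 over 8 ciliated cell markers, against 0.131 to 41.4 and 10.2 to 20.6 in the other libraries. MGL KO replicate 2 had the lowest total count, the highest summed CPM of skeletal muscle (89222.7) and smooth muscle markers (12675.7) and the lowest of squamous epithelium markers (3940.7). Values without MGL KO replicate 2 or 4 are given beside many of the results, and the part of tissue makeup in them was not tested.

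The positions and sequences below come from the GRCm39 genome, the build of the deposited counts, with GENCODE M39 genes. Gm21451 lies on the forward strand at chr14:69628303-69717736 and has 14 exons with 2775 bases. Entpd4 (chr14:69574623-69604719, forward strand), its copy Entpd4b (chr14:69792873-69822969, forward strand) and Loxl2 (chr14:69846209-69933283, forward strand) lie within the same stretch. When this stretch was aligned with itself, it resolved into a head-to-tail tandem repeat. The first copy ran from 69491734 to 69709985 and the second from 69709984 to 69928260, each 218 kb long, and 27 bases differed or were missing between them (99.99% identity). Entpd4 lies wholly in the first copy and Entpd4b wholly in the second. Gm21451 crosses the boundary between the copies: its exons 1 to 12, with 2348 bases, lie in the first copy and match Loxl2 at every base. Its exons 13 and 14 lie in the second copy and match at every base the 2 exons of Gm27222, a noncoding gene inside the Slc25a37 locus near the left edge of the first copy. The last 2 exon blocks of Loxl2, 2907 of its 5522 exonic bases, lie past the right edge of the repeat.

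**Figure D1:**
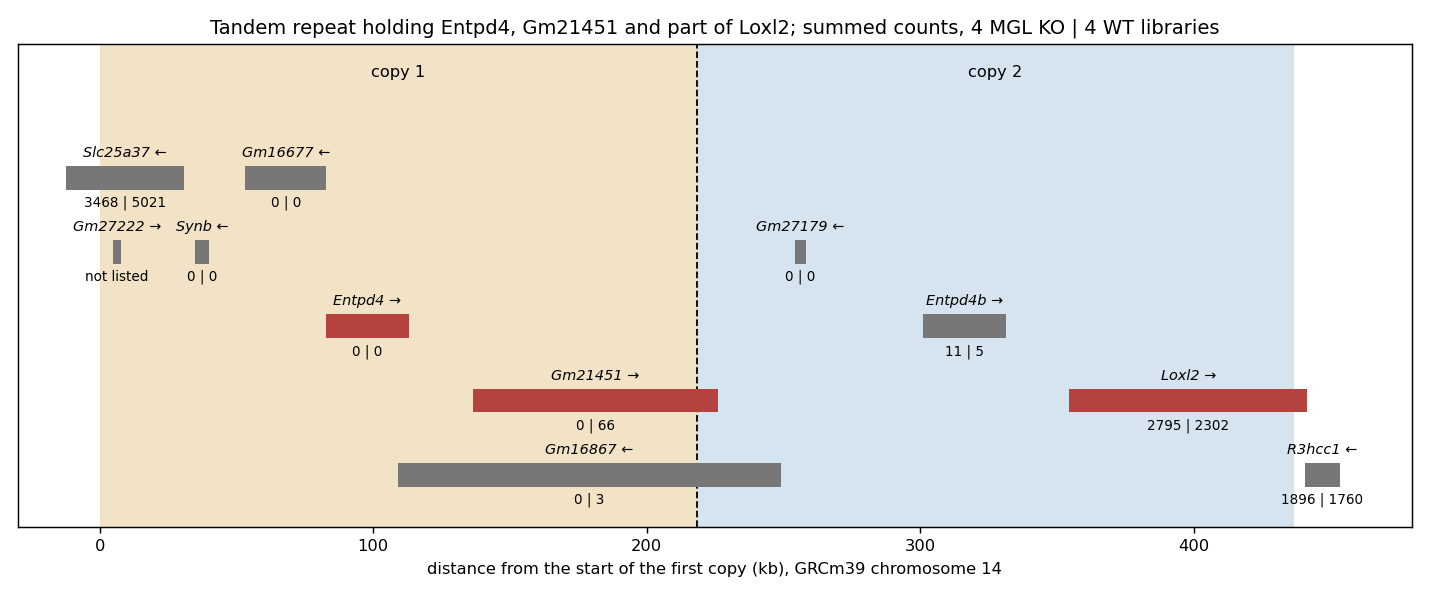
Genes drawn to scale along chromosome 14, with the horizontal axis giving the distance in kb from the start of the first copy of the tandem repeat (the first copy shaded tan, the second blue, the dashed line at their boundary); red bars are Entpd4, Gm21451 and Loxl2, grey bars are other genes, arrows give the strand, and the numbers under each bar are summed counts in the 4 MGL KO and the 4 WT libraries. Gm21451 (0 against 66 counts) and Gm16867 (0 against 3) cross the boundary, and the other listed genes that lie wholly inside the repeat had 0 to 16 counts in all.

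The exon junction that sets Gm21451 apart from Loxl2 is shown first, because it is the only spliced sequence of Gm21451 that no other annotated gene holds. Both lines begin in lower case with the same last 30 bases of exon 12 (chr14:69709415-69709444 in Gm21451 and chr14:69927690-69927719 in Loxl2), and the capitals mark the first 30 bases of the next exon (chr14:69714845-69714874 and the coding exon at chr14:69929763-69929792).
Gm21451 exon 12 to 13: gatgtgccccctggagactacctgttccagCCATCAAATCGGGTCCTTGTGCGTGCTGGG
Loxl2 exon 12 to 13: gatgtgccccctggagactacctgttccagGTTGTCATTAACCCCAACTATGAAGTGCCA

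The edges of the tandem repeat are shown on the forward strand because the middle one exists only where the copies lie side by side. In the first line the capitals mark the start of the first copy, in the second line the end of the first copy runs in lower case into the second copy in capitals (the last 2 lower case bases fit the end of the first copy and the start of the second), and in the third line the end of the second copy in lower case runs into single-copy sequence in capitals. The lines cover chr14:69491704-69491763, chr14:69709956-69710015 and chr14:69928231-69928290. The lower case letters of the middle and right lines are the same.
Left edge: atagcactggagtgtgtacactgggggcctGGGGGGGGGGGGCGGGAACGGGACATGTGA
Middle: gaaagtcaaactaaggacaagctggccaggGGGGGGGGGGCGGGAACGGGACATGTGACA
Right edge: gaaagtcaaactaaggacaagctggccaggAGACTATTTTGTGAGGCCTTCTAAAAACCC

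The share of a gene that a read can be placed on was measured by cutting its exons into overlapping words of 50 bases and counting the places in GRCm39, on either strand, that hold each word. None of the 2089 exonic words of Gm21451 occurred at a single place, and all of them occurred at 2 places. For Entpd4 and for Entpd4b, 0 of 7437 words occurred at a single place (98% at 2 places). Loxl2 had 55.6% of its words at a single place, Wdfy1 77.5% and Nnt 99.3%. In spliced transcripts, which also hold words across exon junctions, 49 of the 2726 words of 50 bases of Gm21451 (1.8%) were in no transcript of another gene, and all 49 crossed the junction of exon 12 and exon 13 shown above. With words of 150 bases the share was 5.67%. How multiply mapped reads were counted is not given in the sources used here, so counts of Gm21451, Entpd4, Entpd4b and the repeated part of Loxl2 are uncertain as levels of these genes.

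**Figure D2:**
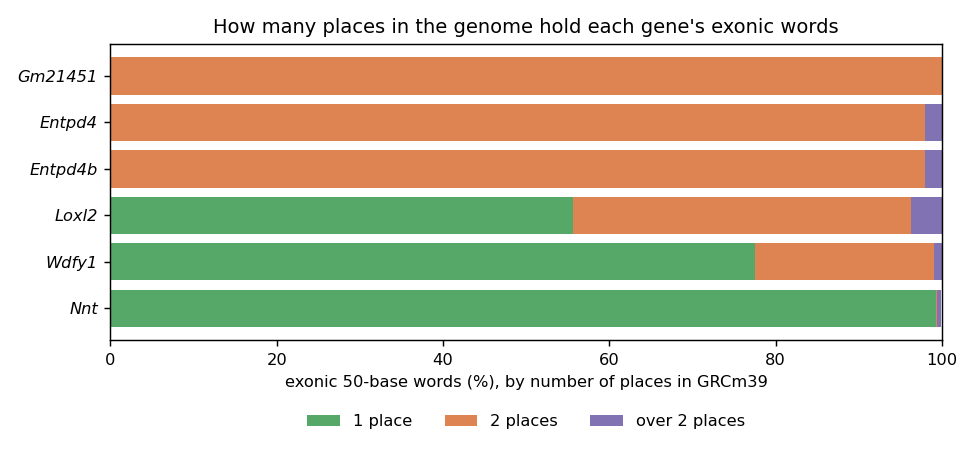
Horizontal bars give, for each gene, the percent of its exonic words of 50 bases that occur at 1 place (green), at 2 places (orange) or at more places (purple) in GRCm39. Gm21451, Entpd4 and Entpd4b have no green part, Loxl2 has 55.6%, Wdfy1 77.5% and Nnt 99.3%.

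Gm21451 had 0 counts in all 4 MGL KO libraries and 14, 24, 15 and 13 counts in WT replicates 1, 2, 3 and 4. The groups did not overlap. In normalized CPM the WT values were 0.781, 1.37, 0.986 and 0.848 (0.996 ± 0.263, SD, n = 4). Pooled over WT the level was 1 (95% Poisson interval 0.773 to 1.27), and 3 counts over the MGL KO group correspond to 0.0488. The pooled WT level was 20.5-fold above that limit, a ratio that makes no allowance for the error of the WT level. This ratio rests on 66 WT counts in all, and it was 14.5 to 22.1 when each library was left out in turn. Of the 4 members with a count, Gm21451 was the only one whose groups did not overlap, beside 6.02% of the 14864 genes tested (3.3% lower and 2.72% higher in MGL KO). Of all symbols in the table, 1, Gm21451, combined at least 3 counts in every WT library with 0 throughout MGL KO, and 1 other gene had the opposite pattern. Gm16867 (chr14:69600722-69740969), a protein-coding annotation that overlaps Gm21451 on the other strand, also crosses the boundary of the repeat. It had 1 and 2 counts in WT replicates 1 and 2 and 0 in the other libraries.

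Set against its source, Gm21451 made up 2.02% of the summed Gm21451 and Loxl2 counts in WT replicate 1 (95% exact binomial interval 1.11 to 3.36%), 4.81% in replicate 2 (3.11 to 7.07%), 2.86% in replicate 3 (1.61 to 4.68%) and 2% in replicate 4 (1.07 to 3.39%). These are shares of counts and not of expression. Of the spliced words of 50 bases, 1.8% of those of Gm21451 and 56.7% of those of Loxl2 were in no other gene. In the MGL KO libraries the share was 0 of 426 to 1121 counts, with exact binomial upper ends of 0.329 to 0.862% (3 counts of the total come to 0.268 to 0.704%). Adding the Gm21451 counts to Loxl2, an alternative chosen after the data were seen, moved the log2 fold change of Loxl2 from 0.37 to 0.33.

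Loxl2 had 661, 426, 1121 and 587 counts in the MGL KO libraries and 680, 475, 509 and 638 in the WT libraries. These are 40.5, 38.4, 69.1 and 33 normalized CPM in MGL KO (45.3 ± 16.2, SD, n = 4) and 37.9, 27.1, 33.5 and 41.6 in WT (35 ± 6.24, SD, n = 4). The groups overlapped, and MGL KO replicate 3 lay 1.71-fold above the next MGL KO library. The log2 fold change of MGL KO minus WT was 0.37 with a standard error (SE) of 0.24, and it was 0.09 without MGL KO replicate 3 and 0.50 without MGL KO replicate 4. The last exon of Loxl2 overlaps R3hcc1 on the other strand, and the strand setting of the counting is not given in the sources used here, so reads from the overlap cannot be told apart.

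Entpd4 was at 0 in all 8 libraries. Over all libraries 3 counts correspond to 0.0235 normalized CPM. Its copy Entpd4b holds 99.4% of the spliced words of 50 bases of Entpd4. Entpd4b had 5, 5, 0 and 1 counts in the MGL KO libraries and 0, 1, 4 and 0 in the WT libraries, 16 in all, and the groups overlapped. Neither gene passed the filter on low counts. Of the other genes that lie wholly inside the repeat, Synb, Gm16677 and Gm27179 were also at 0 in every library.

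Nnt (chr13:119470859-119566380, reverse strand) was barely detected in either genotype. It had 6, 2, 5 and 1 counts in the MGL KO libraries and 12, 5, 7 and 15 in the WT libraries, and 70% of the symbols with a count had a higher total. The normalized CPM were 0.367, 0.18, 0.308 and 0.0562 in MGL KO (0.228 ± 0.139, SD, n = 4) and 0.669, 0.285, 0.46 and 0.978 in WT (0.598 ± 0.298, SD, n = 4). WT replicate 2 lay among the MGL KO values, so the groups overlapped. The pooled ratio of MGL KO to WT, from 14 against 39 counts, was 0.386 (95% exact interval 0.193 to 0.726). That interval covers counting error only, not the spread between mice, and is no test of the genotypes. The log2 ratio of the mean levels was -1.39, with a range of -1.72 to -1.05 when each library was left out in turn. Nnt did not pass the filter on low counts and was not fitted. Of its exonic words, 99.3% occur at a single place, and the cause of its low counts was not tested. Its upstream end overlaps Paip1 on the other strand, a gene with 64.1 to 119 normalized CPM, and reads from the overlap cannot be told apart.

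Wdfy1 (chr1:79679017-79753860, reverse strand) holds a repeat of its own. The 7.28 kb at chr1:79693148-79700426 and at chr1:79700590-79707868 were identical at every base, and each copy holds 3 coding exon blocks. One of these exons is shown because a read inside it fits both copies; it reads the same on the reverse strand at chr1:79699931-79699985 and at chr1:79707373-79707427.
Wdfy1 exon in both copies: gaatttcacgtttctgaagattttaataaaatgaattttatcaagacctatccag

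Of the 6662 exonic words of Wdfy1, 21.6% occurred at 2 places. The gene had 323, 243, 288 and 348 counts in the MGL KO libraries and 382, 367, 383 and 308 in the WT libraries. The normalized CPM were 19.8, 21.9, 17.8 and 19.6 in MGL KO (19.8 ± 1.71, SD, n = 4) and 21.3, 20.9, 25.2 and 20.1 in WT (21.9 ± 2.26, SD, n = 4). The groups overlapped, since MGL KO replicate 2 lay above 3 of the 4 WT libraries. The log2 fold change was -0.15 (SE 0.12), and it ran from -0.20 to -0.07 when each library was left out in turn.

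**Figure D3:**
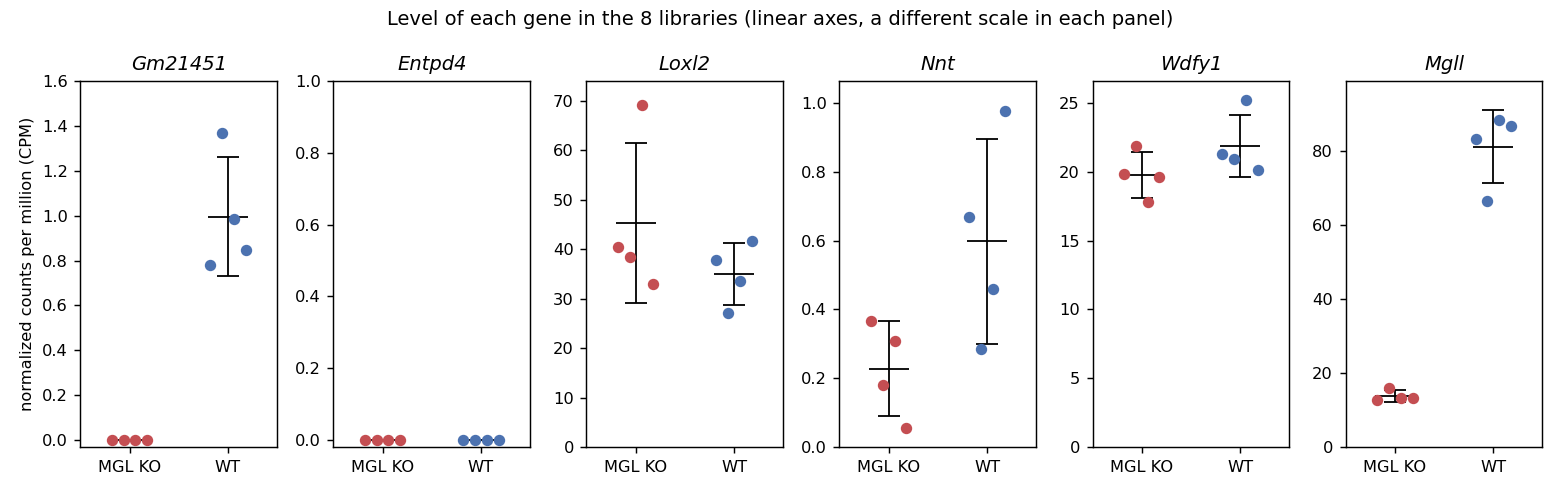
Normalized CPM of the 5 genes and of the targeted gene Mgll in each library, with a linear vertical axis of its own in each panel; points are libraries (MGL KO red, WT blue), and black bars are the mean and SD of 4 libraries. Gm21451 is at 0 in every MGL KO library and at 0.781 to 1.37 in WT, Entpd4 is at 0 throughout, and the groups overlap for Loxl2, Nnt and Wdfy1.

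Per kb of exon, the order of the levels was the same in every WT library. The divisor was all exonic bases, although the share of exonic words at a single place differed. It was 0% for Gm21451 and Entpd4, 55.6% for Loxl2, 77.5% for Wdfy1 and 99.3% for Nnt, and its part in the order was not tested. Loxl2 stood highest with 4.91 to 7.53 CPM per kb in WT, above Wdfy1 with 2.66 to 3.34, Gm21451 with 0.281 to 0.494, Nnt with 0.0214 to 0.0735 and Entpd4 at 0. No neighbours in this order overlapped over the WT libraries. In MGL KO, Loxl2 (5.97 to 12.5 CPM per kb) stood above Wdfy1 (2.35 to 2.91) and Nnt (0.00422 to 0.0276), while Gm21451 and Entpd4 were at 0. The mean level per kb of Loxl2 over the 8 libraries exceeded that of 72.3% of the tested genes with a position, that of Wdfy1 45.7% and that of Gm21451 2.94%. For Gm21451 this mean joins 0 in MGL KO and 0.359 CPM per kb in WT, so its rank describes neither group.

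The genes around the members were examined to see whether the genotypes also differed beside them. Of the 14864 genes tested by edgeR's quasi-likelihood test, 7 (0.0471%) had an adjusted p under 0.05 and 1285 (8.65%) an unadjusted p under 0.05. Within 1 Mb of Gm21451, Entpd4 and Loxl2, 0 of 26 tested genes passed the adjusted threshold, 3 had an unadjusted p under 0.05, and the groups of 3 genes did not overlap (6.02% of all genes tested). The edgeR exact test, which called 65 of all genes (0.437%), called 0 of these. Slc25a37 encodes mitoferrin, the iron importer of mitochondria, and its gene spans the left edge of the repeat with 7.84% of its exonic bases inside. It had 34.4 to 62.8 normalized CPM in MGL KO and 63.4 to 91.4 in WT, with a log2 fold change of -0.49 (SE 0.20, edgeR adjusted p = 0.55), and -0.32 without MGL KO replicate 2. R3hcc1, the next gene to the right of Loxl2, had 28.8 to 38.1 normalized CPM in MGL KO and 25.6 to 27.7 in WT (log2 fold change 0.24, SE 0.12, edgeR adjusted p = 0.615), and the log2 fold change was 0.14 without MGL KO replicate 2. The uncharacterized gene 9930012K11Rik, 459 kb from Loxl2, had 1.9 to 4.75 normalized CPM in MGL KO and 5.61 to 10.6 in WT (means 3.58 ± 1.21 and 7.19 ± 2.27, SD, n = 4 each, edgeR adjusted p = 0.503). Without MGL KO replicate 2 the MGL KO values ran from 3.61 to 4.75, and the log2 fold change was -0.79. DESeq2, which called 130 of all genes (0.863%), called 1 here, Sftpc, which encodes a surfactant protein of the lung. It had 418 and 69 counts in MGL KO replicates 1 and 4 and 0 to 3 in the other libraries, and MGL KO replicates 1 and 4 were also the libraries with the most airway secretory marker CPM (41.4 and 7294.5). The part of airway tissue in this call was not tested.

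Around Nnt, 0 of 9 tested genes passed the adjusted threshold (0.0471% of all genes tested), 4 had an unadjusted p under 0.05 (8.65% of all) and the groups of 3 did not overlap (6.02% of all). Fgf10, a growth factor made by mesenchyme that acts on epithelium, had 27.4 to 40.1 normalized CPM in MGL KO and 20.5 to 24.1 in WT (log2 fold change 0.61, SE 0.14, edgeR adjusted p = 0.359). The neighbour 4833420G17Rik, 32.9 kb from Nnt, had 19.2 to 28.1 normalized CPM in MGL KO and 32.7 to 38.5 in WT (log2 fold change -0.53, SE 0.13, edgeR adjusted p = 0.432). Tmem267, 58.2 kb from Nnt, had 7.59 to 17.1 normalized CPM in MGL KO and 3.51 to 6.45 in WT (log2 fold change 1.06, SE 0.31, edgeR adjusted p = 0.478), and the log2 fold change was 0.75 without MGL KO replicate 2. The edgeR exact test called 0 genes around Nnt and DESeq2 called 2, Fgf10 (adjusted p = 0.0405) and 4833420G17Rik (adjusted p = 0.0483). Paip1, the gene that overlaps Nnt, had a log2 fold change of 0.16 (SE 0.19), which turned to -0.04 without MGL KO replicate 2, and its groups overlapped.

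Around Wdfy1, 0 of 8 tested genes passed the adjusted threshold (0.0471% of all genes tested). An unadjusted p under 0.05 was found for 1 (8.65% of all), and the groups of 0 genes lay apart (6.02% of all). The edgeR exact test and DESeq2 called 0 genes there. The nearest tested genes, Ap1s3 with a log2 fold change of -0.26 (SE 0.30) and Mrpl44, which overlaps the upstream end of Wdfy1, with 0.12 (SE 0.21), had overlapping groups. Without MGL KO replicate 2 these values were -0.12 and -0.13. Windows of 5 Mb held 64 tested genes around Gm21451, Entpd4 and Loxl2, 18 around Nnt and 50 around Wdfy1. Of these, 0 passed the adjusted threshold, and 7, 7 and 4 had an unadjusted p under 0.05 (8.65% of all genes tested).

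**Figure D4:**
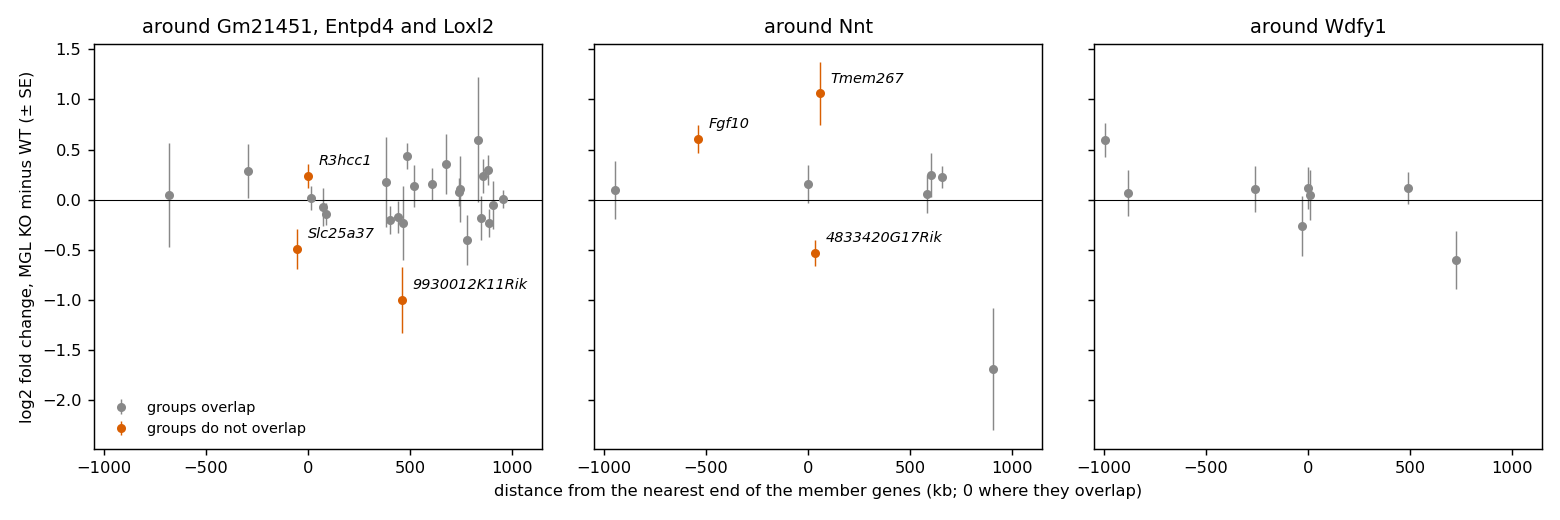
Log2 fold change of MGL KO minus WT with its SE (vertical axis) for each tested gene within 1 Mb of the members, by distance in kb from the nearest end of the member genes (0 where they overlap); orange points are genes whose 4 MGL KO and 4 WT libraries do not overlap. The orange genes are 3 of 26 around Gm21451, Entpd4 and Loxl2, 3 of 9 around Nnt and 0 of 8 around Wdfy1, beside 6.02% of all genes tested.

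Genes that share a role or a history with the members were read from 6 lists with 67 genes. Of these, 56 were tested and 0 passed the adjusted threshold of the edgeR quasi-likelihood test (0.0471% of all genes tested). An unadjusted p under 0.05 was found for 3 (8.65% of all), and the groups of 3 did not overlap (6.02% of all). The same shares over all genes stand beside the counts of each list below. Their median log2 fold change was -0.04, beside 0.02 over all genes tested, and it was -0.02 without MGL KO replicate 2 and -0.10 without MGL KO replicate 4. The edgeR exact test and DESeq2 each called 1 of them, Eln.

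In the list of other C57BL/6 substrain variants, 4 of 7 genes were tested. Their median log2 fold change was -0.38 (-0.14 without MGL KO replicate 2 and -0.56 without MGL KO replicate 4), and 0 had an unadjusted p under 0.05. Mmrn1, which encodes multimerin, a protein of platelets and endothelium, had 7.22 to 32.9 normalized CPM in MGL KO and 17.9 to 30.1 in WT, and at least 80 counts in every library. Its lowest value was that of MGL KO replicate 2; without that library the MGL KO values ran from 16.1 to 32.9, and the log2 fold change went from -0.29 to -0.02. In the list of nulls and copy number variants between inbred strains, 9 of 14 genes were tested, with a median of -0.32 (-0.12 without MGL KO replicate 2 and -0.53 without MGL KO replicate 4) and 0 at an unadjusted p under 0.05. Glo1, the glyoxalase whose gene is duplicated in some strains, had 58.6 to 87.7 normalized CPM in MGL KO and 70.5 to 82.6 in WT. Gpnmb, a glycoprotein that is truncated in the DBA/2J strain, had 31.5 to 120.2 in MGL KO and 63.8 to 94 in WT. Its highest MGL KO value was that of replicate 2, and the other MGL KO libraries reached 44.3, with a log2 fold change of -0.48 with replicate 2 and -1.07 without it (edgeR adjusted p = 0.161). The groups overlapped for every tested gene of these lists.

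For the role of Nnt, 14 of 15 genes that supply or use mitochondrial NADPH were tested. Of these, 12 had a log2 fold change above 0 and 2 below, beside 7884 above and 6980 below over all genes tested. The median was 0.12, and 1 gene had an unadjusted p under 0.05. Without MGL KO replicate 2, all 15 genes of the list passed the filter, 7 were above 0 and 8 below, and the median was -0.02. Gpx4, the glutathione peroxidase that reduces lipid peroxides, had 208 to 449 normalized CPM in MGL KO and 195 to 300.5 in WT, and Prdx3, the mitochondrial peroxiredoxin, had 94.8 to 169 and 91.5 to 133. Without MGL KO replicate 2, which held the 449 of Gpx4, the MGL KO libraries ran from 208 to 229.7 for Gpx4 and from 94.8 to 115 for Prdx3, and the log2 fold changes turned from 0.31 to -0.02 and from 0.12 to -0.09. The groups of every gene in this list overlapped.

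For the role of Loxl2, all 10 genes of the lysyl oxidase family and its substrates were tested, with a median of 0.11 (0.07 without MGL KO replicate 2 and 0.18 without MGL KO replicate 4) and 1 at an unadjusted p under 0.05. This gene was Eln, which encodes elastin, with 399 to 655 normalized CPM in MGL KO and 268 to 325 in WT (log2 fold change 0.77, SE 0.17, edgeR adjusted p = 0.319). The edgeR exact test (adjusted p = 0.0361) and DESeq2 (adjusted p = 0.0034) called Eln. The fibrillar collagen genes Col3a1 and Col1a1 had log2 fold changes of -0.17 (SE 0.35) and -0.25 (SE 0.40), which were 0.02 and -0.01 without MGL KO replicate 2, and their groups overlapped. The other lysyl oxidases, Lox, Loxl1, Loxl3 and Loxl4, had log2 fold changes of 0.22, 0.05, -0.24 and 0.28, each with overlapping groups.

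For the roles of Entpd4 and Wdfy1, 8 of 10 ectonucleotidase genes and 11 of 11 genes of the WDFY family and the TLR3 and TLR4 adaptor pathway were tested. The ectonucleotidases had a median of -0.10 (-0.04 without MGL KO replicate 2 and -0.22 without MGL KO replicate 4), with 0 genes at an unadjusted p under 0.05. Entpd5, an endoplasmic reticulum nucleotidase, had 81.8 to 151 normalized CPM in MGL KO and 123 to 136 in WT, with a log2 fold change of -0.14 that was -0.01 without MGL KO replicate 2 and -0.30 without MGL KO replicate 4. Cant1, a calcium-activated nucleotidase of the Golgi, had 28.7 to 52.2 normalized CPM in MGL KO and 34.8 to 41.3 in WT, with a log2 fold change of 0.05 that was 0.18 without MGL KO replicate 2 and -0.11 without MGL KO replicate 4. The WDFY and Toll-like receptor list had a median of -0.12 (0.01 without MGL KO replicate 2), with 1 gene at an unadjusted p under 0.05. Traf3, a ubiquitin ligase downstream of TRIF, had 50.6 to 55.9 normalized CPM in MGL KO and 38.4 to 48.5 in WT (log2 fold change 0.24, SE 0.10, edgeR adjusted p = 0.559). Tbk1, the kinase that phosphorylates IRF3, had 35.1 to 40.0 in MGL KO and 40.4 to 43.2 in WT (log2 fold change -0.16, SE 0.08, edgeR adjusted p = 0.629). Irf3 itself had overlapping groups and a log2 fold change of -0.14 (SE 0.14), which was -0.03 without MGL KO replicate 2.

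**Figure D5:**
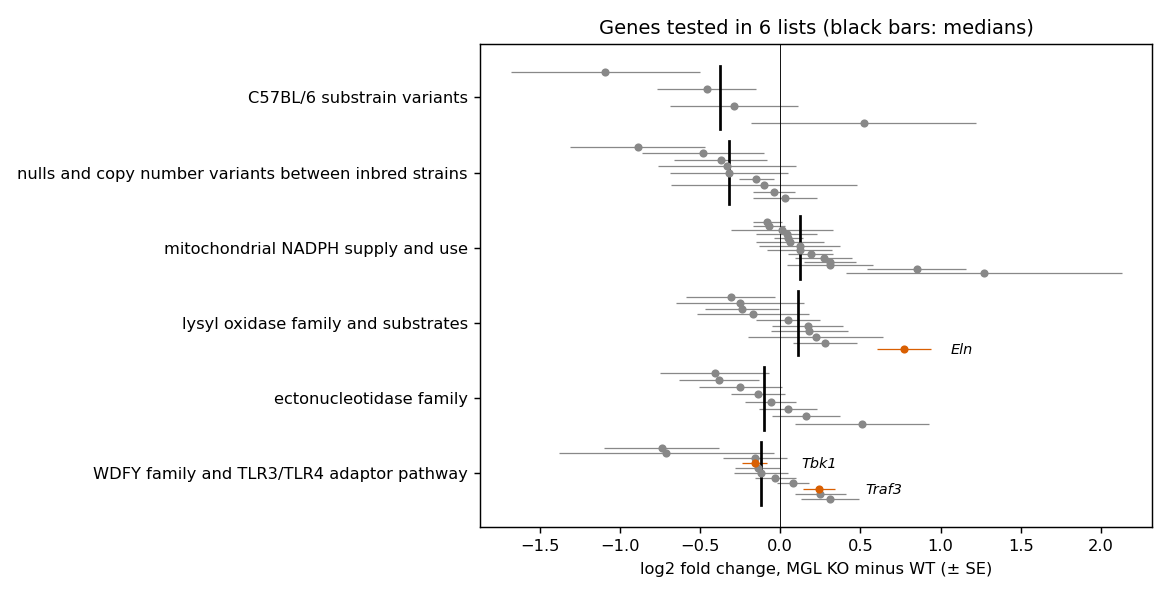
Log2 fold change of MGL KO minus WT with its SE (horizontal axis) for the 56 tested genes of the 6 lists; black bars are list medians and orange points are genes whose groups of 4 libraries do not overlap. Only Eln, Traf3 and Tbk1 are orange, beside 6.02% of all genes tested whose groups do not overlap, and the medians run from -0.38 to 0.12.

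The genes whose log2 CPM followed each member most closely over the 8 libraries were read by Pearson's r, as a description over points that share depth and genotype. For Gm21451 they were Mgll (r = 0.98), 4932438A13Rik (0.98) and Cirbp (0.97), a cold-inducible RNA-binding protein. All 3 had groups that did not overlap and were lower in MGL KO. A high r selects for this pattern, because Gm21451 was at 0 in every MGL KO library and at 0.781 to 1.37 normalized CPM in WT. For Loxl2 they were Rftn2 (0.95), Bgn (0.95), which encodes the matrix proteoglycan biglycan, and Gfra2 (0.93). For Nnt they were Ddah1 (0.96), Gpr1 (0.95) and Wdr41 (0.94), and for Wdfy1 they were Son, Bbc3 and Pigl (0.96 each). Bgn had 158 to 289 normalized CPM in MGL KO and 153 to 207 in WT.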

How the data were processed

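RNA of 8 esophagi was enriched by poly(A) selection and sequenced on NovaSeq instruments. The authors checked reads with FastQC 0.11.9, trimmed them with Cutadapt and aligned them with STAR 2.7.10b to GRCm39. The deposited values are whole-number counts per gene symbol, without normalization. The annotation, counting tool, strand setting and treatment of multiply mapped reads are not given in the sources used here. Genotype and replicate number were taken from the labels, and 30552 symbols (93%) matched 1 position in GENCODE M39.

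Counts were scaled by TMM, filtered with filterByExpr (minimum count 10) and fitted with the quasi-likelihood test of edgeR 4.0.16 (R 4.3.3), with Benjamini-Hochberg adjustment over 14864 genes and a threshold of 0.05. The fit was tested on simulated data. Alternatives included the edgeR exact test, named in the study's methods, and DESeq2 1.42.0. Normalized CPM are counts over TMM-scaled library size. Words and positions came from GRCm39, and repeats from minimap2 2.31-r1302. Named genes were the members, genes sharing sequence with them, neighbours within 1 Mb and list genes whose groups did not overlap, the nearest neighbours, the 2 highest genes per list, and the 3 most alike genes per member (log2 CPM, prior count 1). Sftpc, Gm16867 and other genes inside the repeat, and the lysyl oxidases given by fold change alone, were chosen after their values were seen. The members and lists were chosen with earlier results of these data known. A further gene that the rule names is not reported here.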

Additional observations from a re-analysis of the deposited data

Results flagged for a closer look

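In 11 of 78 groups of 4 libraries, a library lay far from the other 3 by Dixon's criterion, where chance gives about 3.9. For no member did a library stand out in this way. Among their neighbours, 9930012K11Rik stood at 10.6 normalized CPM in WT replicate 2 (next library 6.44), and Slc25a37 at 34.4 in MGL KO replicate 2, below the next library at 60.1. R3hcc1 stood at 38.1 and Mrpl44 at 38.2 in MGL KO replicate 2, against 29.9 and 22.3 in the next libraries. In the lists, Gpnmb stood at 120.2 and Gpx4 at 449 in MGL KO replicate 2, Gpx4 at 300.5 in WT replicate 3, and Eln at 325 in WT replicate 1. Of these flags, 5 concern MGL KO replicate 2, which had the lowest total count, the lowest squamous epithelium marker sum (3940.7 CPM) and the highest skeletal and smooth muscle marker sums (89222.7 and 12675.7 CPM). Over marker lists, MGL KO replicate 4 stood apart with 635 summed CPM of airway ciliated cells and 7294.5 of airway secretory cells, and WT replicate 1 with 1.9 of thyroid.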

How the results depend on the processing

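Under alternatives, 135 values (counts of calls and values of the members) were recomputed. The log2 values of Loxl2, Wdfy1 and Nnt kept their direction, while counts of calls and the ratio for Gm21451 cannot change direction. Of the 135 values, 17 moved by more than the spread between libraries or the margin set for counts. Within that spread, the log2 fold change of Loxl2 ran from 0.09 to 0.50 and that of Wdfy1 from -0.20 to -0.07. Leaving out MGL KO replicate 2 turned the direction of the named genes Paip1, Mrpl44, Gpx4, Prdx3 and Col3a1 and of the medians of the mitochondrial NADPH and WDFY lists, and leaving out MGL KO replicate 4 turned that of Glo1 (-0.04 to 0.05) and Cant1 (0.05 to -0.11). The count of genes called, 7, was 65 with the edgeR exact test, 130 with DESeq2, 2 without a filter on low counts, 2 with the replicate block, and 2 to 5 when each library was left out: 5 when WT replicate 4 was left out, 4 for MGL KO replicate 1, 3 for MGL KO replicate 2 and 2 for each of the others. It was 7 with RLE factors. Same-numbered libraries of the groups deviated with correlations of -0.14, -0.28, -0.14 and 0.08, so they share only a number, and the replicate block left the counts around the members and in the lists at 0. DESeq2 called 1 gene around Gm21451, Entpd4 and Loxl2, 2 around Nnt and 1 in the lists, where the edgeR exact test also called 1, all instead of 0. The cause was not tested. The ratio of the pooled WT level of Gm21451 to its limit in MGL KO, 20.5-fold, ran from 14.5 to 22.1 when each library was left out. Fewer libraries raise the limit that a count of 0 allows. Statements on Gm21451 rest on 66 counts and those on Nnt on 53 over all libraries.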
